A study of Mus musculus with 8 samples.

Results

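The genes described here are 8 long genes of neuronal cell surface proteins, Nrxn2, Nrxn3, Cntnap2, Nrcam, Ncam1, Lsamp, Csmd1 and Dscam, taken by name from the GENCODE M1 annotation of the mm9 assembly, in which 22367 protein-coding genes lie on the nuclear chromosomes. Their spans run from 125 kb for Nrxn2 to 2241 kb for Cntnap2, sum to 7419201 bp and hold 0.730% of the bp of all protein-coding genes. All 8 were among the 2401 protein-coding genes of at least 100 kb. No value of the peak lists was used to choose them, but they were named after results on the same lists were known.

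5-Hydroxymethylcytosine (5hmC) is made from 5-methylcytosine by the Tet dioxygenases, occurs mostly at CpG dinucleotides, and is abundant in brain, where it is found along the bodies of genes. Neurexins are presynaptic receptors that bind neuroligins across the synapse, Cntnap2 is a neurexin-related protein that clusters potassium channels along myelinated axons, and Nrcam, Ncam1, Lsamp and Dscam are adhesion molecules of the immunoglobulin superfamily that act in axon growth and in the recognition of one neuron by another. Csmd1 is a transmembrane protein of the nervous system with CUB and Sushi domains that regulates complement, and it is an adhesion molecule only in a loose sense.

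5hmC was mapped by GLIB-Seq, in which 5hmC is glucosylated, oxidized with periodate and biotinylated so that fragments that carry it can be pulled down and sequenced. The 6 libraries, 1 for each group, came from the E14 line of embryonic stem cells (ESCs), from C57BL/6 embryonic fibroblasts (MEFs), from adult brain and liver of C57BL/6 mice of 8 weeks, and from E14 cells carrying a hairpin RNA that targets GFP as a control (shGFP) or Suz12, a subunit of the Polycomb complex PRC2 (shSuz12). The labels give embryonic day 11 for the MEFs and the methods of the study a later day. The transfected cells were selected with puromycin, and the sources do not name which Suz12 hairpin this library carries. Brain and liver are mixtures of cell types, so a change in 5hmC per cell and a change in the share of a cell type cannot be told apart. The lists hold no expression values, so the labelled cell types were not checked against marker genes, and the level of Suz12 was not analysed here.

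The deposited values are peak positions with a score from the peak caller MACS. The lists held from 130408 peaks in liver to 217025 in MEFs on the nuclear chromosomes and covered from 83.5 Mb in shSuz12 to 208 Mb in MEFs. Read counts are not part of them, so the depth behind each list is unknown. Scores began at 80 in the ESC and liver lists, at 30 in those of MEFs and brain, at 50.02 in that of shGFP and at 30.34 in that of shSuz12, so a weak region could enter some lists and not others. For this reason coverage is given as the percentage of a gene span under peaks and, for comparisons, as relative coverage, which is that percentage divided by the same percentage over all protein-coding genes of the library. The latter was 11.7% in ESCs, 11.9% in MEFs, 14.0% in brain, 12.9% in liver, 7.50% in shGFP and 5.29% in shSuz12. With 1 library per group there is no spread between replicates and no test between groups. Exact (Clopper-Pearson) 95% intervals of shares of peaks cover counting error alone.

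The 8 genes together were covered less than protein-coding genes at large in every library, and least in liver. Peaks covered 1.64% of their summed spans in ESCs, 2.73% in MEFs, 4.61% in brain, 0.107% in liver, 1.25% in shGFP and 0.946% in shSuz12. Relative to all protein-coding genes these values were 0.140 in ESCs, 0.230 in MEFs, 0.330 in brain, 0.00829 in liver, 0.167 in shGFP and 0.179 in shSuz12. Brain was thus the highest and liver the lowest library on both scales. MEFs came next on both scales with all peaks. Among ESCs, shGFP and shSuz12, shSuz12 was the lowest in percent covered and the highest in relative coverage. By number, the genes held 121 peaks in ESCs, 243 in MEFs, 309 in brain, 9 in liver, 114 in shGFP and 127 in shSuz12. Of all brain peaks 0.196% had their midpoint in the 8 genes (95% interval 0.175 to 0.219%), against 0.00690% of the liver peaks (0.00316 to 0.0131%). Most brain peaks of the genes were weak, with 15.5% at a score of at least 80 against 21.1% of the whole brain list. With peaks of at least that score alone, relative coverage was 0.209 in brain, 0.147 in MEFs, 0.140 in ESCs, 0.157 in shGFP and 0.0992 in shSuz12, so that MEFs lay below shGFP. MEFs were also below shGFP and shSuz12 at equal bp in all lists, with 0.151, 0.157 and 0.179, and when divided by the coverage of genes of at least 100 kb, with 0.227, 0.245 and 0.253. In relative coverage, brain stayed the highest and liver the lowest library in these 3 settings. In percent covered at scores of at least 80, brain was above ESCs in Lsamp and Dscam alone. Nrxn2 then had 24.4% in brain and 49.4% in ESCs.

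Coverage was unequal among the genes. The median gene was covered by 1.16% in ESCs, 3.23% in MEFs, 7.97% in brain, 0.168% in liver, 0.876% in shGFP and 0.940% in shSuz12. The medians over all genes of at least 100 kb were higher, at 4.48, 9.85, 10.4, 3.09, 3.19 and 2.46%, respectively. Nrxn2 and Ncam1 were the 2 genes above those medians in 5 libraries, and no gene was in liver. Nrxn2 alone held 50.9% of the covered bp of the 8 genes in ESCs, 40.2% in shGFP and 35.2% in shSuz12, but 13.8% in brain and 8.18% in MEFs. Without Nrxn2, the other genes had a relative coverage of 0.0698 in ESCs, 0.101 in shGFP, 0.118 in shSuz12, 0.215 in MEFs and 0.289 in brain.

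**Figure D1:**
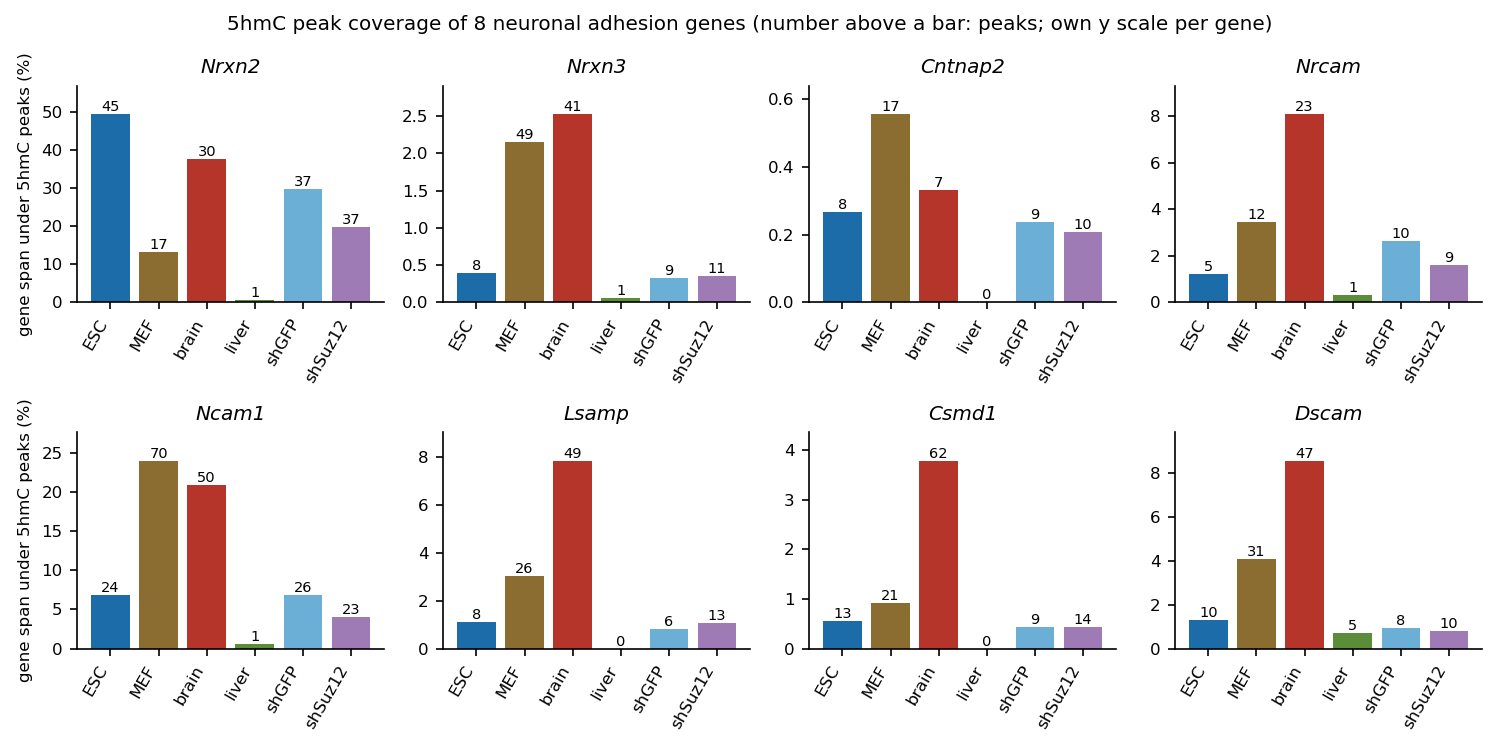
Percentage of each gene span under 5hmC peaks (y axis, from 0, own scale per gene) in the 6 libraries (x axis), with the number of peaks above each bar; there is 1 library per bar and no error bar. Liver was the lowest bar in all 8 panels, and brain the highest in 5, from 2.53% in Nrxn3 to 8.54% in Dscam, with all listed peaks. With scores of at least 80 alone, brain was the highest library in Lsamp and Dscam.

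Nrxn2, which encodes a presynaptic neurexin, was the most densely covered of the genes in brain and in the 3 ESC libraries. Its span (ENSMUSG00000033768.9) lies on chromosome 19 at 6418731 to 6544169, plus strand. It was covered by 49.4% in ESCs, 13.2% in MEFs, 37.7% in brain, 0.531% in liver, 29.8% in shGFP and 19.7% in shSuz12, with 45, 17, 30, 1, 37 and 37 peaks. The 3 ESC libraries and brain were high, MEFs intermediate and liver almost bare. With scores of at least 80 MEFs had 3.29%, brain 24.4% and shSuz12 6.44%. In ESCs Nrxn2 was covered more than 98.0% of genes of at least 100 kb, and in liver more than 32.6% of them. Its strongest ESC peak, of 6653 bp, started 51.0 kb from the transcription start site (TSS) and had a score of 2974, the highest of any peak in the 8 genes. The liver peak, of 666 bp, lay in an intron 68.4 kb from the TSS, had a score of 88.5, and overlapped no ESC and no brain peak. The 100 kb upstream of Nrxn2, which contain Rasgrp2, Pygm, Sf1, Map4k2, Men1 and Cdc42bpg, were covered by 39.9% in liver, 41.6% in brain and 40.1% in ESCs. Liver peaks were therefore dense up to 9350 bp from the TSS of Nrxn2 and nearly missing within the gene. The urate transporter gene Slc22a12 overlaps the annotated span, and peaks in the overlap count for both genes.

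The DNA of the Nrxn2 peaks is shown for the highest-scoring ESC peak whose centre is intronic, at chr19:6516277-6516476, and for the liver peak, at chr19:6487371-6487570, as the central 200 bp of each on the plus strand of mm9, 5′ to 3′, with CG dinucleotides in capitals. The former has 6 CG and lies under peaks of ESCs, brain and shGFP, and the latter has 5 and lies under the liver peak alone.
Nrxn2, ESC peak: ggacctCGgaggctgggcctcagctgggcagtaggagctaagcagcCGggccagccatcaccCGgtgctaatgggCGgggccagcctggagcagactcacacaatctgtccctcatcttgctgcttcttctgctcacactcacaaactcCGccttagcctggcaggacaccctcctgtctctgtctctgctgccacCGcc
Nrxn2, liver peak: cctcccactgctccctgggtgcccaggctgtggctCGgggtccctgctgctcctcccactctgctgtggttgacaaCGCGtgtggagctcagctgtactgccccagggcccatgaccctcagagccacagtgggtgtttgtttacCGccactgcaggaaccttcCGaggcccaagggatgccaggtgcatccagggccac

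Nrxn3, a neurexin gene of 1612 kb (ENSMUSG00000066392.4, chromosome 12, 89961320 to 91573375, plus strand), was covered by 0.388% in ESCs, 2.15% in MEFs, 2.53% in brain, 0.0479% in liver, 0.324% in shGFP and 0.346% in shSuz12. MEFs and brain were close to each other and stood above the 3 ESC libraries, which were also close. Most of this coverage was weak, since with scores of at least 80 MEFs had 0.263% and brain 0.350%, both below the 0.388% of ESCs. Brain and MEFs had similar numbers of peaks, 41 and 49, but 6 of the brain peaks and 6 of the MEF peaks overlapped a peak of the other library, so the coverage of the 2 libraries was alike in amount and lay mostly at different places. Among the ESC peaks the highest score was 534, for a peak 537 kb from the TSS that included 677 bp of exon. A stretch of 289 bp within it, all exonic, was under a peak in every library other than liver.

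Cntnap2, which encodes the neurexin-related Caspr2 protein, was the barest gene in every library with peaks in it. It is also the longest (ENSMUSG00000039419.10, chromosome 6, 45010060 to 47251368, plus strand). Peaks covered 0.265% of it in ESCs, 0.556% in MEFs, 0.331% in brain, 0.236% in shGFP and 0.207% in shSuz12, and there was none in liver. The numbers of peaks were 8, 17, 7, 9 and 10, and MEFs were the highest library. With scores of at least 80 MEFs had 0.0800%, below ESCs. All 7 brain peaks had scores below 80. They lay far from the TSS, the nearest at 1462 kb, and 6 of the 7 were in the last of 10 equal parts of the span, where coverage was 2.96%. The ESC, shGFP and shSuz12 libraries had 2.07, 1.26 and 1.49% in that last part, against at most 0.338% in any other part. A peak over an exon 860 kb from the TSS was present in all 3 ESC libraries, covering 148 bp of exon in each, and in no other library. Between 1044 and 1462 kb from the TSS there was a stretch of 417 kb without a peak in any of the 6 lists.

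For contrast, the central 200 bp of the highest-scoring brain peak of Cntnap2, at chr6:47225868-47226067 near the end of the gene, and the midpoint of the 417-kb bare stretch, at chr6:46262928-46263127, are given on the plus strand of mm9, 5′ to 3′, with CG in capitals. The peak holds 2 CG and the bare midpoint 0.
Cntnap2, brain peak: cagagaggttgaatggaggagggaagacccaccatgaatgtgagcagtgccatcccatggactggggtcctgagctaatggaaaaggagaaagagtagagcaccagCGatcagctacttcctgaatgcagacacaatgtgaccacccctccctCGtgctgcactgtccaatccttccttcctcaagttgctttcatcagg
Cntnap2, bare stretch: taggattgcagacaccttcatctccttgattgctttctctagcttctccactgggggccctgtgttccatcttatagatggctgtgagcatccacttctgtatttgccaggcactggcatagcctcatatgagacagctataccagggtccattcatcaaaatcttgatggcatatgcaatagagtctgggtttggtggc

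Ncam1, the neural cell adhesion molecule gene, had 70 peaks in MEFs, the most of any of the genes in any library. Its span (ENSMUSG00000039542.8, chromosome 9, 49310257 to 49607027, minus strand, 297 kb) was covered by 6.78% in ESCs, 24.0% in MEFs, 20.8% in brain, 0.532% in liver, 6.80% in shGFP and 4.07% in shSuz12. With all peaks MEFs and brain were near each other and the 3 ESC libraries lower. With scores of at least 80 MEFs had 13.7%, and brain, at 6.30%, was below ESCs. Of the 70 MEF peaks 28 had a score of at least 80, and of the 50 brain peaks 11. The liver list had 1 peak in Ncam1, of 1580 bp and a score of 298, the highest of the 9 liver peaks in the genes, and it overlapped an ESC peak. In ESCs coverage was 24.6% in the last of the 10 parts and 0 in the first, and the 2 strongest ESC peaks, with scores of 570 and 465, started 295 and 291 kb from the TSS.

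Nrcam, which encodes a neuronal adhesion molecule of nodes of Ranvier (ENSMUSG00000020598.8, chromosome 12, 45429872 to 45702951, plus strand, 273 kb), was covered by 1.20% in ESCs, 3.42% in MEFs, 8.08% in brain, 0.288% in liver, 2.62% in shGFP and 1.60% in shSuz12. Brain was more than 2-fold above every other library in percent covered, but none of its 23 peaks there reached a score of 80 and the highest was 67.3. Upstream of Nrcam, in the 100 kb that contain Pnpla8, a phospholipase gene, liver coverage was 10.5%, above the 4.47% of brain.

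Lsamp, the limbic system-associated membrane protein gene (ENSMUSG00000061080.5, chromosome 16, 41532971 to 42181792, plus strand, 649 kb), was covered by 1.12% in ESCs, 3.04% in MEFs, 7.86% in brain, 0.803% in shGFP and 1.08% in shSuz12, and had no peak in liver. Its peaks numbered 8, 26, 49, 6 and 13 in these libraries. The ESC and shGFP libraries had a peak right at the start of the gene, beginning 160 and 145 bp from the TSS, which reached 0.936 and 1.42 kb. The shSuz12 library had none there, and its nearest peak began 101 kb from the TSS. After the start, ESC peaks were missing for 532 kb and then set in near the end, whereas brain peaks ran along the whole span with no more than 86.8 kb between them. ESC peaks were listed from a score of 80 and brain peaks from 30, and 9 of the 49 brain peaks reached 80. The longest stretch without a peak was 487 kb in shGFP (listed from 50.02), 198 kb in shSuz12 (from 30.34) and 126 kb in MEFs (from 30). Such stretches were not computed at an equal lowest score. With scores of at least 80 brain had 1.96% and MEFs 0.822%.

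Dscam, the Down syndrome cell adhesion molecule gene (ENSMUSG00000050272.9, chromosome 16, 96813686 to 97392359, minus strand, 579 kb), was covered by 1.31% in ESCs, 4.08% in MEFs, 8.54% in brain, 0.715% in liver, 0.949% in shGFP and 0.801% in shSuz12. With scores of at least 80 brain had 1.43% and MEFs 0.491%, one above and the other below ESCs. Dscam was the gene most covered in liver, with 5 peaks and scores from 84.8 to 201. Of these 5 peaks 2 overlapped a brain peak. Brain coverage was 4.27% in the first of the 10 parts, 18.8% in part 8 and 15.8% in the last, and 72.7% of the covered bp lay in the last 5 parts.

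Csmd1 (ENSMUSG00000060924.7, chromosome 8, 15892537 to 17535586, minus strand, 1643 kb) was covered by 0.561% in ESCs, 0.928% in MEFs, 3.79% in brain, 0.425% in shGFP and 0.434% in shSuz12, and had no peak in liver. Brain had 62 peaks, against 13, 21, 9 and 14 in these other libraries. Of the 62, 5 had a score of at least 80, and with such peaks alone brain had 0.491%, below the 0.561% of ESCs. Protein-coding genes of chromosome 8 together were covered by 26.2% in ESCs, 16.7% in shGFP and 11.8% in shSuz12, far above Csmd1 and above all protein-coding genes of the same libraries. The strongest ESC peak, with a score of 383, began 2.24 kb from the TSS, and shGFP and shSuz12 had a peak at the same place.

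Sequences at the strongest peaks of Ncam1, Lsamp and Dscam, all with an intronic centre, are given for the library in which each gene was most covered, as the central 200 bp on the strand of the gene, mm9, 5′ to 3′, with CG in capitals. They lie at chr9:49471714-49471913, minus strand, in Ncam1, chr16:41548560-41548759, plus strand, in Lsamp, and chr16:96838829-96839028, minus strand, in Dscam. Only MEFs had a peak over the Ncam1 sequence, which has 1 CG, whereas MEFs and brain both had one over those of Lsamp and Dscam, each with 3 CG.
Ncam1, MEF peak: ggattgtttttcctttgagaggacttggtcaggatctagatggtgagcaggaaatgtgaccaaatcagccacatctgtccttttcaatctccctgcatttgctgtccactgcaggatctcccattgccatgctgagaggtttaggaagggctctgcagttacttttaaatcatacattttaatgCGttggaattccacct
Lsamp, brain peak: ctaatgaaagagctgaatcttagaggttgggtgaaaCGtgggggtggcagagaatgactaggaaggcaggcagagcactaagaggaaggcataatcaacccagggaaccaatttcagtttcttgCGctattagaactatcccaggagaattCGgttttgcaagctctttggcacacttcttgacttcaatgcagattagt
Dscam, brain peak: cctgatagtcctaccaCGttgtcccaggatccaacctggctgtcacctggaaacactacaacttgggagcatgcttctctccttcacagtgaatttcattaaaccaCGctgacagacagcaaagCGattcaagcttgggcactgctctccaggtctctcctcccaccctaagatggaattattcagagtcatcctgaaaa

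**Figure D2:**
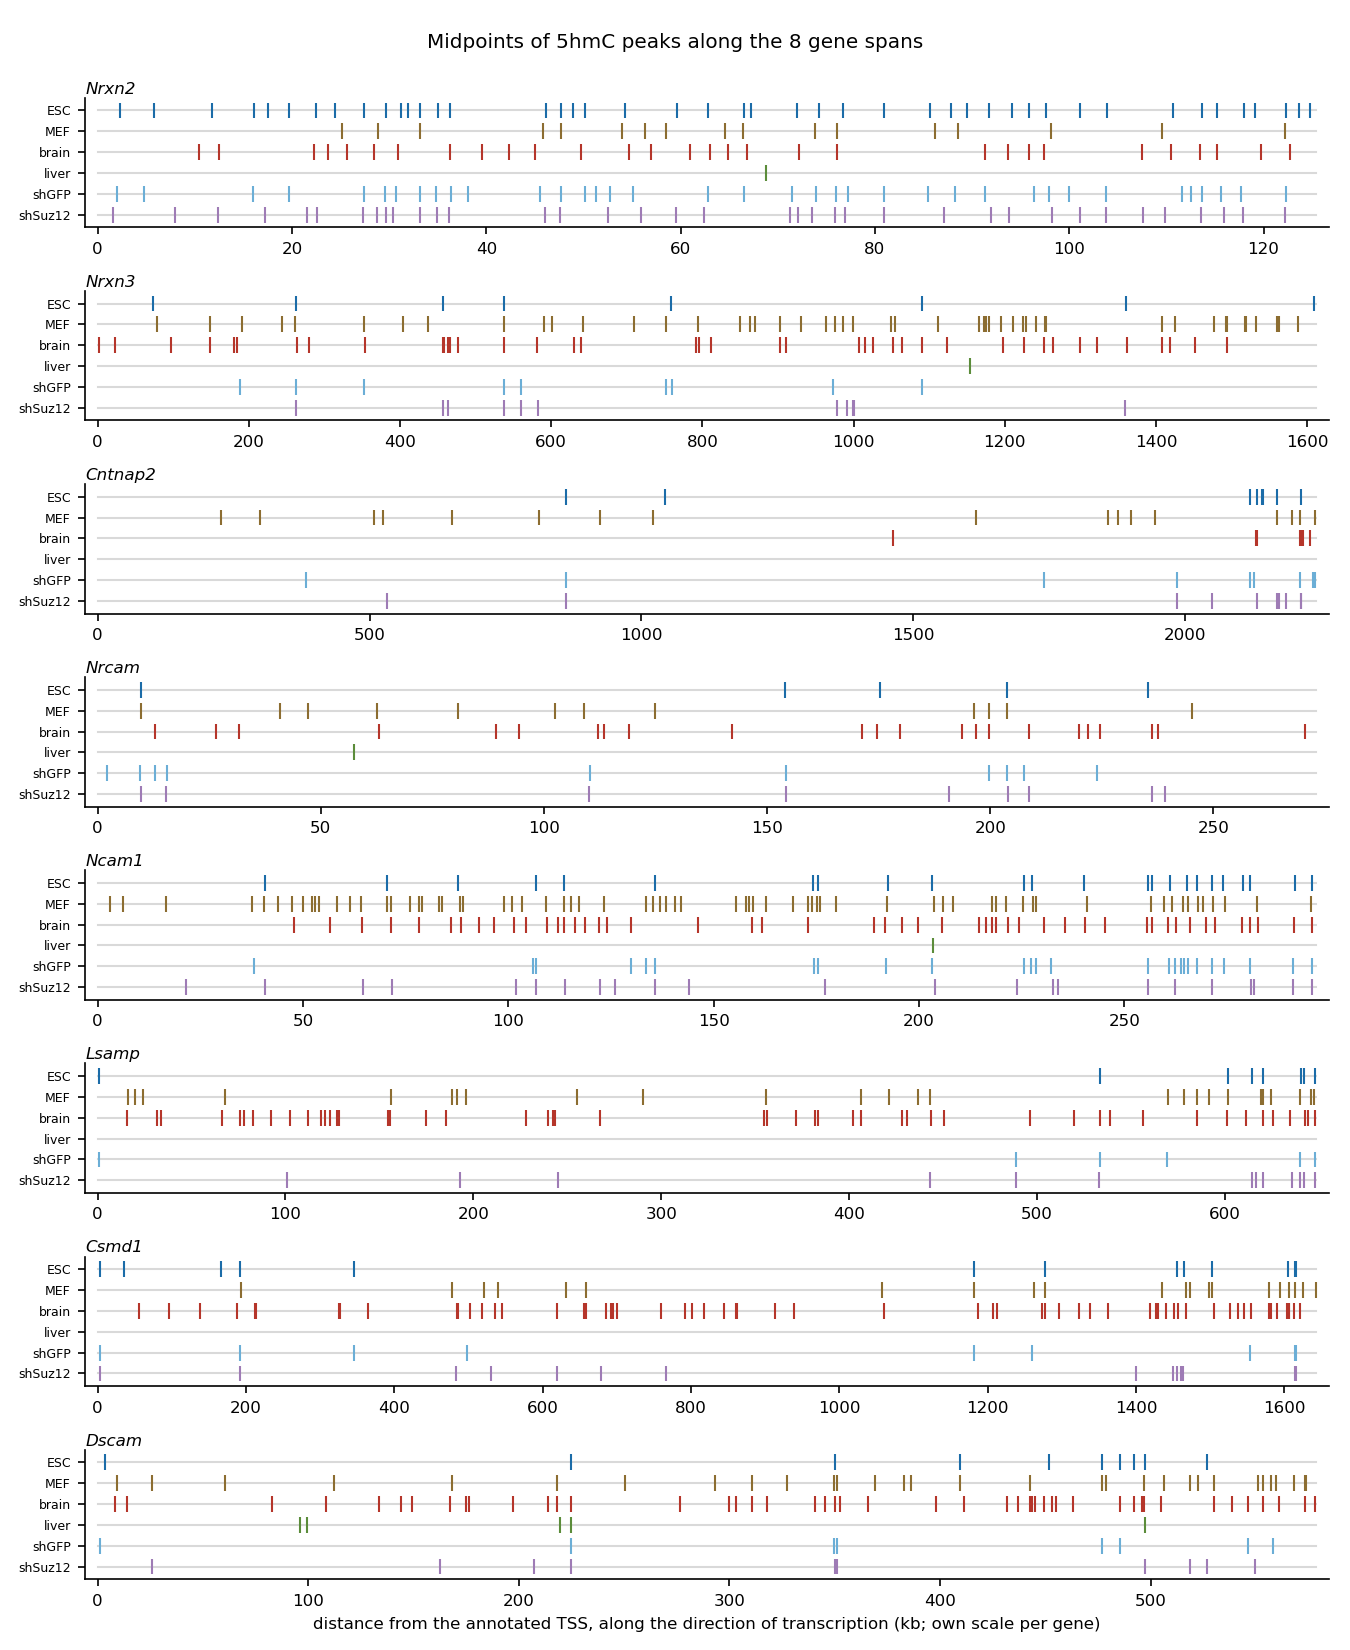
Midpoints of all peaks (ticks) along the 8 gene spans in the 6 libraries; the x axis is the distance from the annotated TSS in kb along the direction of transcription, on its own scale for each gene. The 9 liver peaks, the crowding of Cntnap2 peaks at the end of the gene and the 532-kb stretch of Lsamp without ESC peaks can be seen.

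Few peaks lay at the starts of these genes. The TSS, taken as the outermost annotated start, was under a peak in 0 of the 8 genes in every library. Within 1 kb of the TSS a peak was present in 3 genes in ESCs (Lsamp with 776 bp, Dscam with 494 bp and Csmd1 with 408 bp), in 1 in MEFs (Dscam), in 2 in brain (Lsamp and Nrxn2), in 2 in shGFP (Lsamp and Dscam), in 2 in shSuz12 (Dscam and Nrxn2) and in 0 in liver. Among all genes of at least 100 kb the share with a peak in that window was 29.4% in ESCs, 31.4% in MEFs, 19.4% in brain, 22.3% in liver, 30.2% in shGFP and 22.3% in shSuz12. Counts out of 8 genes are too few to tell from these shares. Internal protein-coding starts were covered in a few cases, with 3 of the 5 starts of Ncam1 under a peak in MEFs and in shGFP, and 2 of the 9 of Nrxn2 in brain. A peak also lay over 1 of the 5 starts of Ncam1 in ESCs, brain and shSuz12. The same held for 1 of the 3 of Lsamp in ESCs, brain and shGFP, and 1 of the 6 of Nrxn3 in ESCs.

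More than 50% of the covered bp lay in the last 5 of the 10 parts in every library other than liver. Of the covered bp of the 8 genes together, 62.95% lay in the last 5 of the 10 parts in ESCs (95% interval from the number of peaks 53.7 to 71.4%), 60.4% in MEFs (53.9 to 66.6%) and 58.2% in brain (52.5 to 63.8%). The share was 58.9% in shGFP (49.4 to 67.9%), 55.2% in shSuz12 (46.1 to 64.0%) and 48.0% in liver (17.3 to 82.4%). In all genes of at least 100 kb pooled it was 52.7% in ESCs, 50.2% in MEFs, 53.1% in brain, 51.3% in shGFP and shSuz12, and 48.6% in liver. The intervals of ESCs and MEFs lay above the share of long genes, and the others included it. They treat peaks as independent, which peaks of the same gene may not be, so they are no test against 50% or against long genes. Gene by gene, more than 50% lay there in 7 of 8 genes in ESCs, 6 in MEFs, 6 in brain, 4 in shGFP, 6 in shSuz12 and 3 of the 5 genes with a peak in liver. Of all genes of at least 100 kb with a peak, 55.7% did so in ESCs, 49.5% in MEFs, 60.4% in brain, 46.2% in liver, 50.8% in shGFP and 51.0% in shSuz12. In the last part the median of the 8 genes was 12.3% in brain, against 3.44% in the first, and all genes of at least 100 kb pooled had 16.2% and 12.0%.

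Exons of the 8 genes were far more covered than their introns in every library other than liver. Pooled exons were covered by 22.8% in ESCs, 15.2% in MEFs, 25.8% in brain, 14.7% in shGFP and 10.04% in shSuz12, and pooled introns by 1.38, 2.58, 4.35, 1.09 and 0.836%. In liver the values were 0.150 and 0.107%. The difference did not rest on Nrxn2, since without it exons had 14.1% in ESCs and 22.1% in brain, and introns 0.680 and 3.85%. In genes of at least 100 kb pooled, exons had 20.4% in ESCs and 23.6% in brain and introns 7.28 and 12.6%, so that with Nrxn2 the exons of the 8 genes were covered about as much as exons of long genes in these libraries, and their introns less. Without Nrxn2 the exons were covered less than those of long genes in every library, with 14.1 against 20.4% in ESCs, 13.4 against 16.8% in MEFs, 22.1 against 23.6% in brain, 8.51 against 13.6% in shGFP and 7.04 against 9.71% in shSuz12. In liver the exons of the 8 genes had 0.150% against 15.9% for long genes. Exons were more covered than introns in 8 of 8 genes in ESCs, MEFs, brain and shSuz12 and in 7 of 8 in shGFP, the exception being Nrcam. Of long genes with a peak 77.1, 54.1, 69.5, 64.4 and 68.5%, respectively, had that order. In liver 1 of the 5 genes with a peak had it, and 51.8% of such long genes. In brain 45.5% of the exon bp of Dscam and 41.2% of those of Lsamp lay under peaks, against 8.05 and 7.31% of their introns. Nrxn3 had 22.1% of its exon bp covered in ESCs and 0.217% of its introns. The exons add up to 0.320% of the span in Cntnap2 and 11.0% in Nrxn2, and exon bp of all annotated transcripts were counted.

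**Figure D3:**
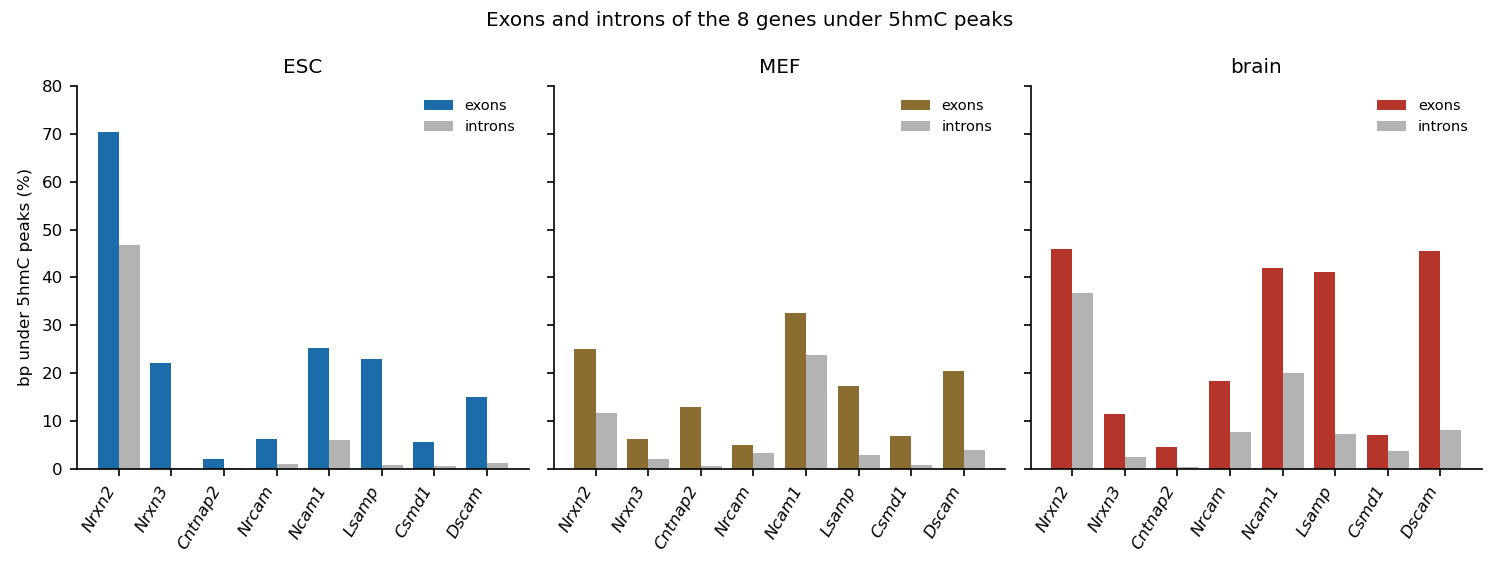
Percentage of exon bp (coloured bars) and intron bp (grey bars) under 5hmC peaks in each of the 8 genes (x axis) in ESCs, MEFs and brain; the y axis starts at 0 and is shared. The exon bar is the taller of each pair, with 45.5% against 8.05% in Dscam in brain.

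The adult tissues, brain and liver, differed in all of the genes. Relative coverage was at least 2-fold higher in brain than in liver for 8 of the 8 genes, against 49.4% of the genes of at least 100 kb, and at least 2-fold lower for 0, against 13.6% of them. Nrxn2 was 65.6-fold higher in relative coverage, Nrxn3 48.8-fold, Ncam1 36.2-fold, Nrcam 26.0-fold and Dscam 11.0-fold, whereas Cntnap2, Lsamp and Csmd1 had no liver peak and give no ratio. The median ratio of the 5 genes with peaks in both libraries was 36.2, and that of 1758 genes of at least 100 kb was 1.31. In liver all 8 genes were covered by less than 1%, as were 38.7% of the genes of at least 100 kb. Liver peaks were listed only from a score of 80 and brain peaks from 30. With the same lowest score of 80 in both lists, 6 of the 8 genes were still called higher in brain (37.7% of long genes), Cntnap2 had no peak in either, and Nrcam, with no brain peak left, was called lower (33.1%).

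**Figure D4:**
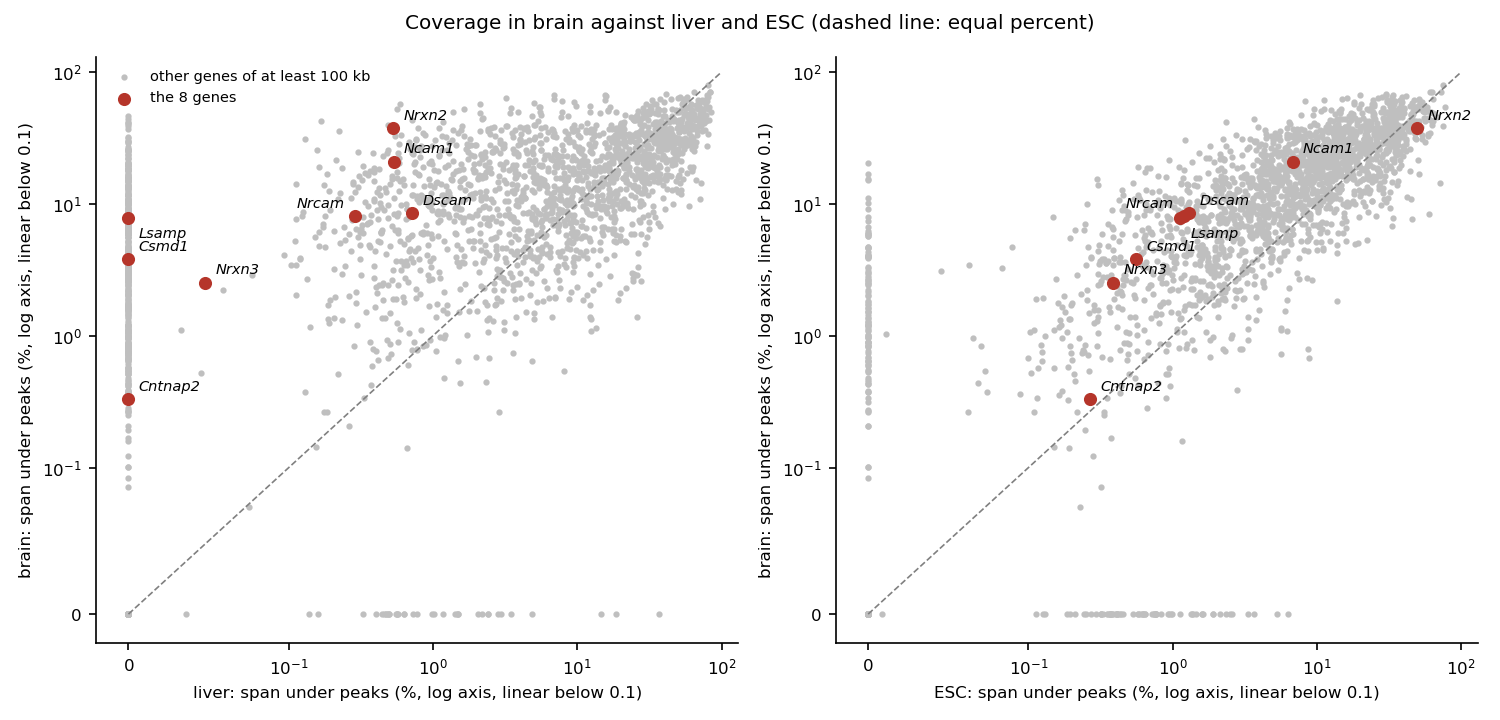
Percentage of each gene span under peaks in brain (y axis) against liver (left, x axis) and ESCs (right, x axis) on log axes that are linear below 0.1%; grey points are the other genes of at least 100 kb, and red points the 8 genes. All 8 lie above the dashed line of equal percent against liver, with 3 at 0 in liver, and 7 against ESCs, where Nrxn2 lies below it.

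Between brain and ESCs, 6 of the 8 genes, all but Nrxn2 and Cntnap2, had at least 2-fold higher relative coverage in brain, a call made for 42.4% of long genes, and 0 had lower (8.97% of long genes). Except for Ncam1, at 2.58, the ratios of these 6 genes with all listed peaks ran from 5.46 in Nrxn3 to 5.88 in Lsamp. They set brain peaks from a score of 30 against ESC peaks from 80, and this range did not hold at equal scores, as given below. Nrxn2 had 0.640 and Cntnap2 1.05, and the median of long genes with peaks in both was 1.60. The count was sensitive to weak brain peaks. With scores of at least 80, 3 genes (Ncam1, Lsamp and Dscam) were called higher, against 26.1% of long genes, and 2 (Cntnap2 and Nrcam) lower, against 34.4%. These calls divide by the coverage of all protein-coding genes. In percent covered at that score, brain and ESCs had 6.30 and 6.78% in Ncam1, 1.96 and 1.12% in Lsamp, and 1.43 and 1.31% in Dscam. Nrxn3 had 0.350 and 0.388%, Csmd1 0.491 and 0.561%, and Nrcam 0 and 1.20%. Between brain and MEFs, whose lists share the lowest score, 4 genes (Nrxn2, Nrcam, Lsamp and Csmd1) were at least 2-fold higher in brain, against 9.56% of long genes, and 0 lower, against 21.3%. Their ratios were 2.42, 2.01, 2.20 and 3.47, and Nrcam was close to the 2-fold limit. Dscam followed with 1.78, Nrxn3 had 0.997, Ncam1 0.738 and Cntnap2 0.505. With scores of at least 80, Nrxn2, Lsamp and Dscam were higher in brain than in MEFs, against 14.6% of long genes. Cntnap2 and Nrcam were then lower, against 39.1%. At equal bp these 2 were also lower (30.4%), and Nrxn2, Lsamp, Csmd1 and Dscam higher (20.6%). The 3 comparisons of brain share the same brain library, as those of the transfected cells share shGFP, so their ratios are not independent of each other.

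The knockdown of Suz12 was set against shGFP, and shGFP against untransfected ESCs, which shows how far ESC libraries without the knockdown differ. Relative coverage was at least 2-fold higher in shSuz12 for 0 of the 8 genes, with 13.1% of long genes called, and lower for 0, with 7.26%. The ratios ran from 0.849 in Ncam1 to 1.91 in Lsamp, with a median of 1.22, and that of long genes was 1.06. In percent covered, Nrxn2 had 29.8% in shGFP and 19.7% in shSuz12, and Ncam1 6.80 and 4.07%, but all protein-coding genes together also had less, 7.50 and 5.29%. shGFP was at least 2-fold above ESCs for 1 gene, Nrcam, at 3.39 (13.6% of long genes), and below for 0 (5.14%). These counts changed with the choice of peaks. At a lowest score of 80, which keeps 17.0% of the shSuz12 peaks and 56.0% of the shGFP peaks, 6 genes were called lower in shSuz12 than in shGFP, against 41.2% of long genes, and 1 higher (10.6%). With equal bp in all lists 3 were called higher, against 27.5%, and 0 lower (3.74%).

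At the level of single peaks the ESC libraries shared a part of their regions in the 8 genes, much of it in Nrxn2. Of the 114 shGFP peaks 64.9% overlapped an ESC peak and 47.4% a shSuz12 peak, and of the 127 shSuz12 peaks 44.1% overlapped a shGFP peak. In genes of at least 100 kb the shares were 75.8, 50.9 and 51.4%. Nrxn2 held 33 of the 74 shGFP peaks that overlapped an ESC peak and 24 of the 54 that overlapped a shSuz12 peak. It also held 26 of the 56 shSuz12 peaks that overlapped a shGFP peak. Brain peaks were shared less than elsewhere, with 18.4% of 309 overlapping an ESC peak and 24.3% a MEF peak, against 39.4 and 53.4% in long genes. Brain peaks of Csmd1 shared least, since 91.3% of the bp they covered were in no other list, and 85.0% in Nrxn3, 82.4% in Nrcam and 81.0% in Lsamp, but 31.9% in Nrxn2. Conversely, 51.2% of the 121 ESC peaks overlapped a brain peak. The shares of bp in brain alone were not computed for long genes. Brain peaks were listed from a score of 30, but ESC and liver peaks from 80 and shGFP peaks from 50.02. Weak brain regions could thus be missing from those lists, and 5 of the 62 brain peaks of Csmd1 reached 80.

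In all, 13 stretches in 5 of the genes, with 4571 bp together, were under a peak in each of the 5 libraries other than liver. Nrxn2 had 7 of them, Ncam1 3, and Nrxn3, Csmd1 and Dscam 1 each. An exon was touched by 5 of the 13, among them 640 bp of Ncam1 that were exonic throughout, 295 kb from the TSS, and the stretch of Dscam, 350 kb from the TSS, with 297 bp of exon.

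CpG content differed widely between the spans. Nrxn2 had 18.5 CpG per kb, more than 99.4% of the genes of at least 100 kb, and the others had 9.05 (Ncam1), 7.99 (Nrcam), 6.56 (Dscam), 6.23 (Lsamp), 5.84 (Csmd1), 5.39 (Nrxn3) and 4.43 (Cntnap2, above 1.37% of them). In brain the order of coverage was the same except that Dscam stood above Nrcam. Within the genes, peaks held 18.8 CpG per kb in ESCs, 13.3 in MEFs and 12.9 in brain, and the sequence outside them 5.61, 5.62 and 5.49. In genes of at least 100 kb, peaks held 18.2, 15.0 and 14.5 CpG per kb in these libraries and the sequence outside them 7.73, 7.64 and 7.63. Nrxn2 was the exception in ESCs, with 18.7 CpG per kb in its peaks and 18.2 outside. In shGFP it had 23.3 in its peaks and 16.4 outside.

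Long genes were divided into 5 classes of 480 or 481 genes by CpG per kb, since median coverage in brain went from 0.692% in the lowest class to 33.6% in the highest. Lsamp, in the lowest class, was covered in brain more than 98.3% of its 480 genes, Csmd1 more than 87.1% and Nrxn3 more than 77.1%, while Cntnap2 was above 40.6%. Dscam was above 75.4% of the class next to the lowest, and Ncam1 above 84.2% and Nrcam above 34.0% of the middle class. Nrxn2 was above 60.9% of the highest class in brain. High ranks were not limited to brain. Ncam1 was above 91.25% of its class in MEFs and 84.4% in shGFP, and Lsamp above 85.2% in ESCs and 90.6% in shSuz12. Csmd1 and Dscam stood lower in MEFs than in brain, each above 46.9% of its class. The ranks use all listed peaks, and of those of the 8 genes in brain 15.5% had a score of at least 80. In liver the median of the lowest class was 0%, and 63.1% of its genes had no peak, as had Cntnap2, Lsamp and Csmd1. Nrxn2, Nrcam and Ncam1 stood low in their classes there. The highest class had a liver median of 17.0%, with Nrxn2 above 9.15% of its 481 genes, and the middle class 5.10%, with Ncam1 above 23.1% and Nrcam above 17.3% of it. Dscam was above 44.6% of its class and Nrxn3 above 63.75%. In ESCs Nrxn2 was above 90.4% of its class, and in MEFs above 9.56%.

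**Figure D5:**
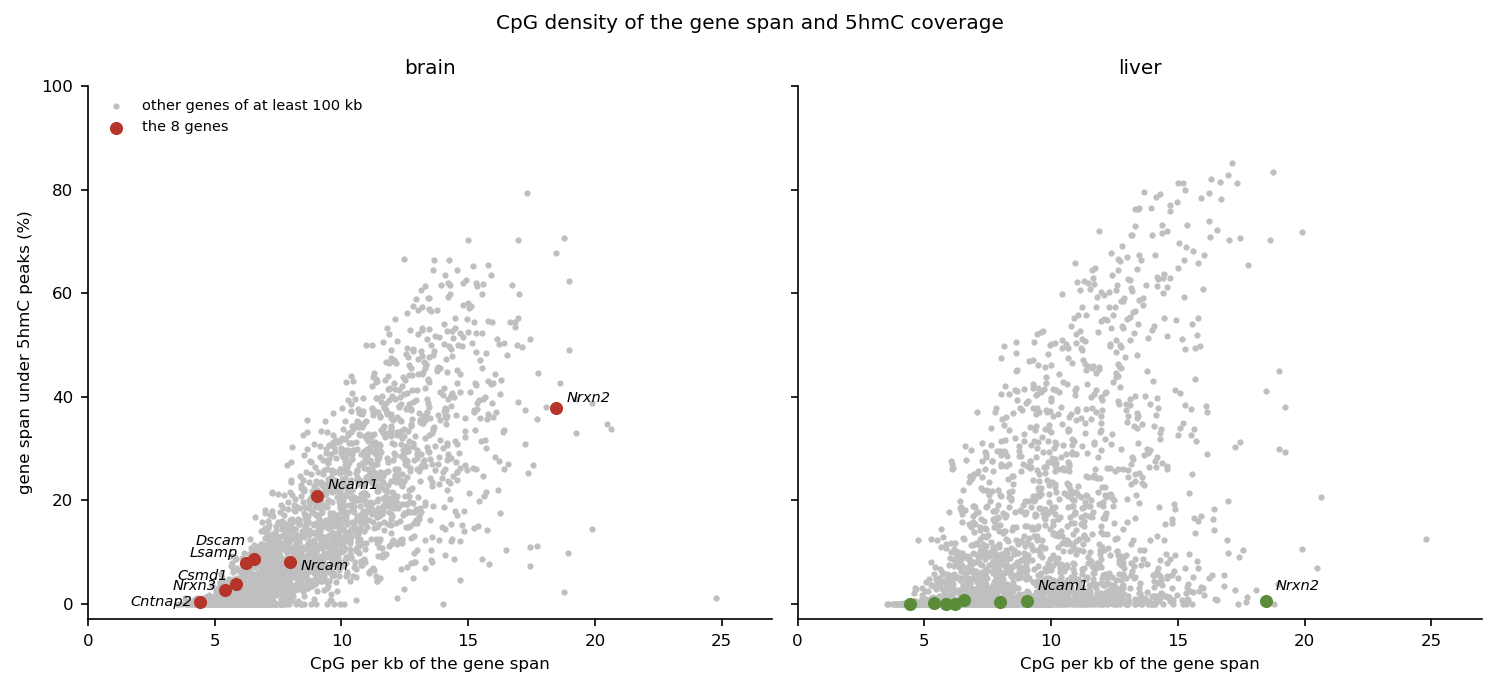
CpG per kb of the gene span (x axis) against the percentage of the span under peaks (y axis) in brain (left) and liver (right); grey points are the other genes of at least 100 kb, coloured points the 8 genes. In brain the 8 genes go from 0.331% at 4.43 CpG per kb to 37.7% at 18.5, and in liver all lie below 1%.

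Other neuronal adhesion genes, taken by symbol from a list of 50 of which 49 were found, were mostly low in liver as well, with exceptions. Their median was 4.70% in brain, 3.81% in MEFs, 0.899% in ESCs, 0.157% in liver, 1.11% in shGFP and 0.755% in shSuz12. The medians over all protein-coding genes were 6.43, 4.43, 8.77, 4.44, 4.17 and 3.05%. Of the 49 genes 24 had no liver peak, against 25.2% of the genes of at least 100 kb. Of all protein-coding genes 42.1% were covered in liver less than Nrxn3, at 0.0479%, so at most that share had no liver peak. Among the listed genes with a peak in either library, brain was at least 2-fold higher than liver in relative coverage in 34 of 44 and lower in 2. Of all protein-coding genes 28 and 32.7% were so called. Against ESCs brain was higher in 30 of 46 and lower in 7 (18.1 and 36% of all), and against MEFs higher in 10 of 47 and lower in 7 (28.5 and 23%). Of the 49 genes 37 are of at least 100 kb. Among all genes of that length, brain was called higher and lower in 49.4 and 13.6% against liver. The shares were 42.4 and 8.97% against ESCs, and 9.56 and 21.3% against MEFs. These counts use all listed peaks, from a score of 30 in brain and MEFs and of 80 in liver and ESCs. The 3 most covered in brain were Ptprf, a receptor tyrosine phosphatase, Lphn2, a latrophilin, and Cadm1, a synaptic adhesion molecule, with 59.3, 52.7 and 50.7%, and these were also covered in liver by 85.2, 73.2 and 26.3%. At the other end, 6 genes had no brain peak, as had 10.5% of the genes of at least 100 kb. The 6 were the contactin gene Cntn6, the Cntnap2 relatives Cntnap3 and Cntnap5c, the X-linked genes L1cam and Nlgn3, and Lrrtm2, a short gene of a synaptic leucine-rich repeat protein. Lrrtm2 went against the order of the tissues, with 46.3% in liver, 59.7% in MEFs and 39.7% in ESCs. The brain list held 22 peaks on the X chromosome, against 104 to 757 in the other lists.

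Genes of at least 100 kb with a pattern most like the median of the 8, by the mean absolute difference in percent covered over the 6 libraries, were Cacna1e (0.126 percentage points), Rorb (0.257), Ntrk3 (0.391), Ptprt (0.416) and Rab3c (0.457). Cacna1e, a calcium channel gene, was covered by 1.14% in ESCs, 3.36% in MEFs, 8.16% in brain, 0.179% in liver, 0.995% in shGFP and 0.651% in shSuz12. Lsamp, at 0.121 points, was the member nearest to that median and Nrxn2, at 22.7, the farthest.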

How the data were processed

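GLIB-Seq peak lists of 6 libraries were used; the 2 RNA-Seq samples were not analysed here. Per the labels and the methods, the authors mapped reads to mm9 with Bowtie 0.12.7, kept unique hits, collapsed redundancies and called peaks per library with MACS 1.4.1, after CASAVA 1.8. Deposited with each peak is a score that the authors obtained from MACS, and its threshold and control are not given in the sources used here. Without read counts, precision beyond the number of peaks is unknown.

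Mitochondrial peaks were left out. Spans, exons and starts came from GENCODE M1, and sequence and CpG counts from NCBIM37, the same assembly as mm9. A peak counted for a gene where it overlapped the span by at least 1 bp, and bp are those within the span. Spans were cut into 10 equal parts from the TSS, promoters were 1 kb on each side, and flanks 100 kb. A gene of at least 100 kb with a peak in either library was called where relative coverage differed at least 2-fold or 1 library had no peak. The overlap of peaks was given as a share of each list.

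The members, the list of other adhesion genes and the alternatives were chosen with earlier results of these data known. All 8 members are named, of the other list the 3 highest and 3 lowest in brain (L1cam, Lrrtm2 and Nlgn3, which tied with the latter, were named after their values were seen), and the 5 long genes nearest to the members' median. For a symbol with several records the longest was taken. Alternatives were peaks with a score of at least 80, the top-scoring 50%, lists cut to equal numbers of peaks, equal bp, spans of protein-coding transcripts, peak midpoints, genes of at least 100 kb as reference, undivided percentages and 1.5-fold. Autosomal genes as reference and pooling without Nrxn2 were added after seeing the data. Steps ran in Python 3.11.15 with numpy 2.4.6, scipy 1.17.1 and matplotlib 3.10.9. The coverage of spans and the 2-fold ratio of coverage were tested on simulated peaks, and the other steps were not.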

Additional observations from a re-analysis of the deposited data

How the results depend on the processing

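No paired analysis was possible because there is only 1 library of every group. The lists differ in lowest score and their depth is unknown, so weak regions limit every comparison between them. Pooled coverage relative to all protein-coding genes became, with scores of at least 80, 0.147 in MEFs, 0.209 in brain and 0.0992 in shSuz12. With the 50% of highest scores it was 0.169, 0.280 and 0.144, and with equal numbers of peaks 0.178 in MEFs. At equal bp ESCs had 0.111, MEFs 0.151, brain 0.218 and liver 0.00309. Against genes of at least 100 kb ESCs had 0.214, MEFs 0.227, shGFP 0.245 and shSuz12 0.253. MEFs were above all 3 ESC libraries with all peaks, but below shGFP at a score of at least 80 (0.157) and below shGFP and shSuz12 at equal bp (0.157 and 0.179) and against long genes. Without Nrxn2, an alternative chosen after seeing the data, it was 0.0698 in ESCs, 0.289 in brain, 0.101 in shGFP and 0.118 in shSuz12. The other 30 of 48 values moved less than their counting interval, those against autosomal genes included. The share of covered bp in the last 5 parts, 58.2% in brain with all peaks, was 65.6% at a score of at least 80 and 67.1% at equal bp, where that of liver, on the 1 peak left in Ncam1, turned from 48.0 to 100%.

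The percentage of a single gene under peaks moved beyond its counting interval in 100 of 240 values. Counts of genes called moved in 19 of 70. The share of long genes with the same call is given in brackets after each count. At a score of at least 80, brain was above ESCs in 3 genes (26.1%) and below in 2 (34.4%). It was below MEFs in 2, Cntnap2 and Nrcam (39.1%), and below liver in 1, Nrcam (33.1%). In the same setting shSuz12 was above shGFP in 1 (10.6%) and below in 6 (41.2%), and shGFP below ESCs in 1 (19.8%). With the 50% of highest scores, shSuz12 was above shGFP in 1 (23.3%), and shGFP above ESCs in 4 (21.2%) and below in 1 (9.75%). With equal numbers of peaks, shSuz12 was above shGFP in 1 (13%) and shGFP above ESCs in 2 (21.6%). With equal bp, brain was below MEFs in 2 (30.4%), shSuz12 above shGFP in 3 (27.5%) and shGFP above ESCs in 6 (41%). At 1.5-fold, brain was below ESCs in 1, Nrxn2 (14.4%), and below MEFs in 1, Cntnap2 (31.6%). At that fold shSuz12 was above shGFP in 2 (22.7%) and shGFP above ESCs in 2 (23.5%). The other 51 of 70 counts stayed within 1.5 times, among them brain above liver, with 6 to 8 genes. For that call the shares of long genes, where they were computed, ran from 37.7 to 57.4%. The cause of these moves was not tested.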
